A study of Mus musculus with 8 samples.

Results

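The genes that carry positional identity in the mouse hindlimb, 10 in number, were followed across 8 knee joint libraries. These were the Hox genes Hoxa9, Hoxa10, Hoxa11, Hoxc9, Hoxc10, Hoxd9 and Hoxd10, the T-box genes Tbx4 and Tbx2, and the homeobox gene Pitx1. They were chosen by name from the table of normalised read counts, and all 10 of 10 names were among its 20681 genes. All 10 passed the filter on low values, which left 14949 genes to be tested. The set serves as a check of which limb, and which level of it, the dissected tissue came from.

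Poly-A RNA was sequenced from knee joints of Acan-Cre;Loxl2 fl/fl mice, whose Loxl2 alleles are flanked by loxP sites and whose Cre is under control of Acan, the aggrecan gene. The control group held 4 libraries, described as vehicle-treated and named Vehicle_DMM_LOXL2wt, and the other group held 4 libraries of conditional knockouts, named KO_DMM_LOXL2ko. What the knockout mice received in place of vehicle, and the age and sex of the animals, are not given in the sources used here, and the abbreviation DMM (as a rule, surgical destabilisation of the medial meniscus) stands in the names of both groups. Acan-driven Cre acts in cells that express Acan, such as chondrocytes, whereas the RNA came from the whole joint, so it also held RNA of cells that Cre does not target. Nothing in the labels ties a library to 1 animal, so p-values measure the spread between these libraries.

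The libraries held 13991000 to 17411617 reads assigned to genes. The targeted gene went against its label: Loxl2 had 282, 349, 1135 and 311 normalised reads in control libraries 1 to 4, against 893, 1468, 960.3 and 1518 in the libraries labelled knockout, so each direction given here is one between libraries as labelled. The log2 difference of Loxl2 was 1.44 (limma adjusted p = 0.0294), a call lost under 8 of the 19 other settings. A count per gene cannot show whether the sequence between the loxP sites was lost. Whole-joint tissue lists also differed. Of 16 fibroblast genes 12 were higher (limma adjusted p under 0.05), with summed values of 43062 to 129828 in control libraries and 183574 to 290598 in libraries labelled knockout. Of 18 skeletal muscle genes 9 were lower and 0 higher, with sums of 2543150 to 2734150 and 1227190 to 1714570. In bulk tissue, fewer cells of a type and less RNA per cell cannot be told apart.

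Hox genes lie in 4 clusters (HoxA to HoxD) and encode homeodomain transcription factors. In the developing limb the genes of paralogue group 10 pattern the upper segment that ends at the knee. Those of group 11 pattern the segment below it, and those of group 13 the hand or foot. Genes of group 9 were read beside these. Pitx1 and Tbx4 are hindlimb genes, Pitx1 acting upstream of Tbx4, while the related Tbx5 marks the forelimb. Adult connective tissue cells keep much of this pattern, so it can serve as a record of where a tissue lies.

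The group 10 paralogues encode nearly the same DNA-binding domain, yet they stood at different levels in the joint, and their differences between the groups did not all have the same sign. Their homeoboxes, the 180 bases that encode that domain, are shown to make the comparison visible. Each is read 5′ to 3′ from a GENCODE M21 transcript, with genome positions on GRCm38 (mm10), and the capitals mark the codons of the recognition helix motif by which a script located it. Hoxa10 lies at chr6:52232554-52232733 on the minus strand, Hoxc10 at chr15:102970848-102971027 on the plus strand and Hoxd10 at chr2:74694141-74694320 on the plus strand, each in exon 2 of 2.
Hoxa10: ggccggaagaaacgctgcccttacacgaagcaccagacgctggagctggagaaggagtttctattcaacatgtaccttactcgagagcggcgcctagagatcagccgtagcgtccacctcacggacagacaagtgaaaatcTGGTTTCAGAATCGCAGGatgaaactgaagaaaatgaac
Hoxc10: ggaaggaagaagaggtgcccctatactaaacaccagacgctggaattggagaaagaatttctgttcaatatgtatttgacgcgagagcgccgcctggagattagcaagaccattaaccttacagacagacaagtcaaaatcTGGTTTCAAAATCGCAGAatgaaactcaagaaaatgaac
Hoxd10: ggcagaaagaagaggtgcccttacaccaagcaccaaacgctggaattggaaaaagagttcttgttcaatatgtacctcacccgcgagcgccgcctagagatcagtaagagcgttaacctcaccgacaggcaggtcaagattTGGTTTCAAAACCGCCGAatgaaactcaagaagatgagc

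Hoxa10 and Hoxc10 shared 145 of the 180 bases (80.6%), Hoxa10 and Hoxd10 142 (78.9%) and Hoxc10 and Hoxd10 149 (82.8%). Over the 45 pairs among the 10 genes, the longest run of identical bases between any of their protein-coding transcripts was 31, between Hoxa9 and Hoxc9. Annotated exons of other genes covered 35.0% of the exon bases of Hoxa11 (the antisense gene Hoxa11os), 10.3% of Pitx1 (Gm28760 and, on the opposite strand, Gm47071), 8.7% of Hoxc10 (Hoxc5, same strand), 5.7% of Hoxd10 (Gm28309) and 1.5% of Hoxa9 (Mir196b). The use of strand in the counting is not given in the sources used here. The counts of Pitx1 and, above all, Hoxa11 are uncertain to that extent. The overlaps of Hoxc10, Hoxd10 and Hoxa9, and that of Pitx1 with Gm28760, are on the same strand. Knowing the use of strand would not settle those, so these counts are uncertain too.

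Both hindlimb genes exceeded the forelimb gene in all 8 libraries. Levels were compared between genes as normalised reads per kilobase of merged exon. Per kilobase, Tbx4 was above Tbx5 in 8 of 8 libraries, by 1.95 to 6.62 times, and Pitx1 was above Tbx5 by 5.10 to 32.8 times. The ratio of Tbx4 to Tbx5 was 3.94 ± 1.83 (SD, n = 4) for control and 3.19 ± 1.44 for labelled knockout, and the groups overlapped. Tbx5 was not absent: it had 19.5, 16.2, 10.3 and 31.8 normalised reads in the control libraries and 29.9, 26.5, 12.0 and 47.5 in the libraries labelled knockout.

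Along the limb, group 10 was the most abundant of the 4 paralogue groups compared. Of the summed per-kilobase level of the analysed Hox genes of groups 9, 10, 11 and 13, group 10 held 58.6% to 65.2%, group 9 held 24.5% to 33.0%, group 11 held 6.77% to 10.3% and group 13 held 0.639% to 3.21% over the 8 libraries. This order was the same in each library, since the ranges do not meet. The first place of group 10 rested on Hoxc10. Without it, Hoxa10 (92.0 to 161 per kilobase) and Hoxd10 (9.34 to 32.0) together stayed below the sum of group 9 (240 to 344). The groups of libraries overlapped for each of the 4 shares. The summed per-kilobase level of group 10 itself, most of it Hoxc10, was 668 ± 56.3 for control and 554 ± 49.9 for labelled knockout, without overlap. The shares rest on Hoxa9, Hoxb9, Hoxc9, Hoxd9, Hoxa10, Hoxc10, Hoxd10, Hoxa11, Hoxc11, Hoxa13 and Hoxc13; Hoxd11, Hoxd12, Hoxd13, Hoxc12 and Hoxb13 were not analysed here, so the distal shares could be too low.

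**Figure D1:**
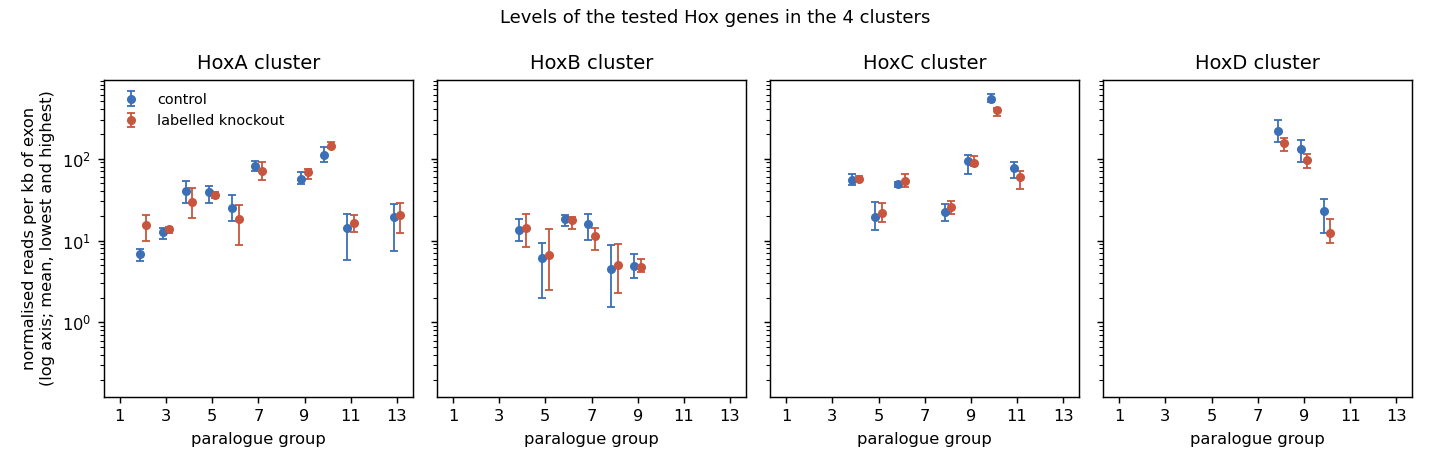
Normalised reads per kilobase of exon (log axis) of the tested Hox genes against paralogue group, for each of the 4 clusters, with the mean of 4 libraries and bars from the lowest to the highest library. Hoxc10 stood highest at 534 ± 54.5 (SD) for control and 397 ± 41.0 for labelled knockout, and HoxB genes were low throughout.

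Among the 10 genes, Hoxc10 had the highest per-kilobase level at 465.5 ± 85.7 (SD over the 8 libraries), above Hoxa10 at 128 ± 23.5 in 8 of 8 libraries. Hoxd9 (112 ± 29.4), Hoxc9 (91.5 ± 14.9), Tbx2 (84.0 ± 28.3), Hoxa9 (62.8 ± 10.5) and Pitx1 (62.4 ± 27.1) followed. Merged exons take in all annotated transcripts of a gene. Their length was 5580 bases for Hoxa9, against 2430 for Hoxc9 and 2136 for Hoxd9. The place of Hoxa9 here, and the share of group 9 given above, depend on that length. From Hoxa10 to Pitx1 each gene exceeded the next in only 3 to 6 of the 8 libraries, and the order could differ by group. Hoxa9 was above Pitx1 in each control library (means 56.5 ± 8.53 and 39.0 ± 7.94). Hoxa9 was below Pitx1 in each library labelled knockout (69.2 ± 8.71 and 85.7 ± 14.2). The means of Tbx2 and Hoxc9 also changed places (63.8 and 93.2 for control, 104 and 89.7 for labelled knockout). Pitx1 was above Hoxd10 in 8 of 8 libraries. Hoxd10 (17.6 ± 8.18), Tbx4 (15.8 ± 4.56) and Hoxa11 (15.3 ± 4.88) formed a low trio whose neighbours changed places between libraries.

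The comparison of the groups asked whether these genes differ between joints labelled knockout and control. Pitx1 rose, Hoxc10 fell, and the other 8 did not pass the test. Of the 10 genes, 1 was called higher and 1 lower, against 11.6% of all 14949 tested genes called higher and 11.6% called lower (limma adjusted p under 0.05), so the share called was near the background of 23.2%. By groups that did not overlap, again 1 was higher (background 11.7%) and 1 lower (background 13.4%, 25.1% for both directions). Scaling on the genes left after removing muscle, blood and the 50 highest genes made 77.7% of all calls higher, against 1732 of 3461 on the deposited scaling, and moved the median of all genes by 0.15. Of the 10 genes it then called 4 higher and 0 lower by limma. On the deposited scaling 3 of the 10 were higher and 3 lower at an unadjusted p under 0.05. That p was met by 5741 of the 14949 tested genes in either direction. edgeR called 2 of the 10 (3324 of all genes) and DESeq2 3 (4125 of all genes). The median log2 difference of the 10 was 0.26 and that of all tested genes 0.00.

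**Figure D2:**
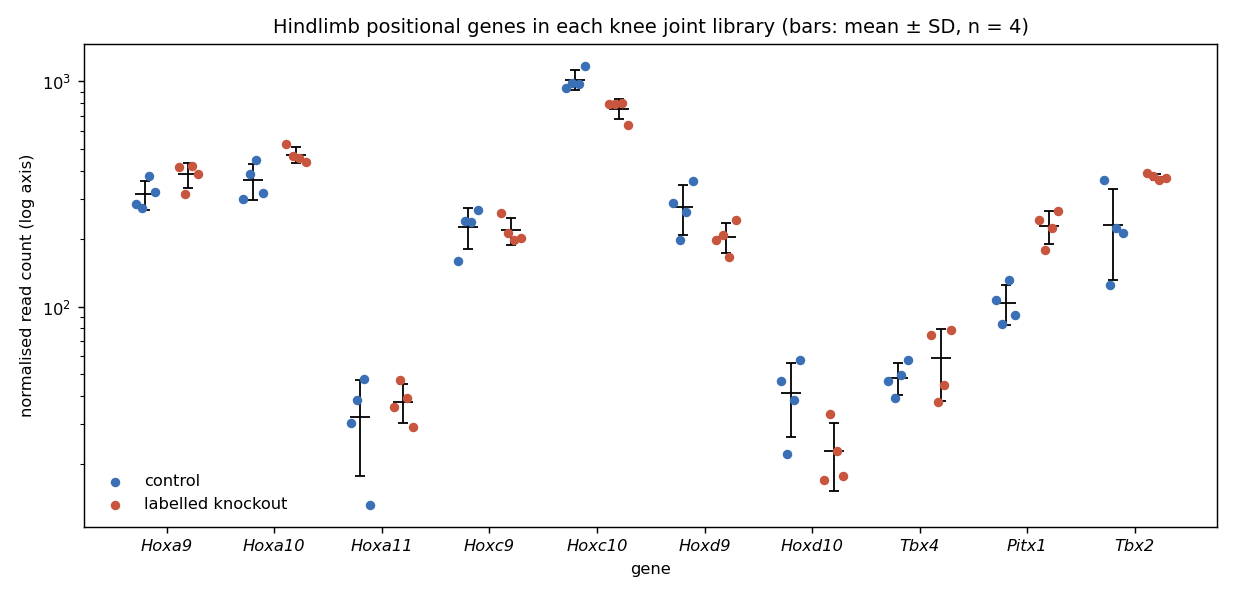
Normalised read count (log axis) of the 10 genes in each library, blue for control and red for labelled knockout, with the mean and SD of 4 libraries. Of the 10 genes, Pitx1 and Hoxc10 have groups that are separate. For Tbx2, control replicate 1 reaches the level of the libraries labelled knockout.

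Pitx1 (chr13:55825051-55836192, minus strand), the homeodomain factor that directs hindlimb identity, had 107, 83.8, 132 and 92.0 normalised reads in control replicates 1 to 4. It had 243, 178, 223 and 267 in the libraries labelled knockout. Each library labelled knockout was above each control library. The mean went from 104 ± 21.1 to 228 ± 37.7 (SD, n = 4 each), a 2.19-fold rise (log2 difference 1.13, SE 0.18, limma adjusted p = 0.00516). Pitx1 stayed called under each of the 19 other settings, with log2 differences from 0.97 to 1.28.

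Tbx4 (chr11:85886422-85916097, plus strand), the T-box factor of hindlimb outgrowth that acts downstream of Pitx1, had 46.5, 39.4, 49.5 and 58.1 normalised reads in the control libraries and 74.8, 37.6, 44.6 and 78.3 in those labelled knockout. Libraries labelled knockout lay both below and above the control range. The means were 48.4 ± 7.74 and 58.8 ± 20.7, with a log2 difference of 0.22 (95% interval -0.39 to 0.83, limma adjusted p = 0.585). Within libraries, the per-kilobase ratio of Pitx1 to Tbx4 was 2.03 to 3.41 for control and 4.17 to 6.40 for labelled knockout. That ratio, which does not depend on the scaling of the libraries, was chosen after its values were seen and carries no test.

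Tbx2 (chr11:85832551-85841948, plus strand), a T-box repressor that neighbours Tbx4 on the chromosome and is active at limb margins and in joint-forming tissue, had 367, 124, 223 and 211 normalised reads in the control libraries. It had 393, 381, 366.5 and 371 in those labelled knockout. Control replicate 1 was level with the libraries labelled knockout and the other 3 control libraries were below them. The means were 231 ± 100.4 and 378 ± 11.8, and the log2 difference of 0.81 (SE 0.26) missed the threshold with a limma adjusted p of 0.0502. It was called without control replicate 1, at a log2 difference of 1.06 (limma adjusted p = 0.0118).

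**Figure D3:**
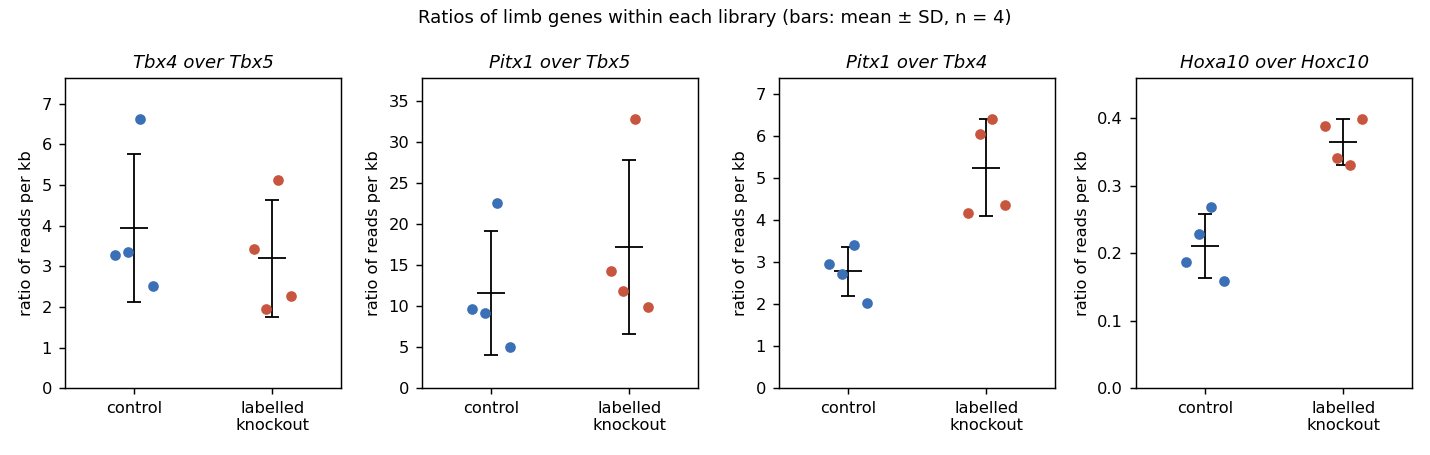
Ratios of reads per kilobase within each library for Tbx4 to Tbx5, Pitx1 to Tbx5, Pitx1 to Tbx4 and Hoxa10 to Hoxc10, with mean and SD of 4 libraries. The ratios to the forelimb gene Tbx5 overlap between the groups, and the other pair of ratios does not.

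Hoxc10 (chr15:102966796-102971893, plus strand), a group 10 gene expressed in the hindlimb rather than the forelimb, had 939.9, 988, 977 and 1172 normalised reads in the control libraries. It had 791, 798, 803 and 641 in those labelled knockout. The libraries labelled knockout were all below the control libraries, and replicate 4 of that group was the lowest of all. The mean went from 1019 ± 104 to 758 ± 78.3, a log2 difference of -0.43 (SE 0.11, limma adjusted p = 0.0195). The call was lost without control replicate 4 (log2 difference -0.36, limma adjusted p = 0.0513) or knockout replicate 4 (-0.35, 0.0504), and when the libraries were scaled on the genes left after removing muscle, blood and the 50 highest genes (-0.28, 0.0691).

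Hoxa10 (chr6:52231197-52240854, minus strand), its paralogue on the HoxA cluster, had 301, 387, 449 and 319.8 normalised reads in the control libraries and 528, 466, 456 and 438 in those labelled knockout. Only control replicate 3 reached into the range of the libraries labelled knockout. The means were 364 ± 67.4 and 472 ± 38.8, and the log2 difference of 0.39 (SE 0.14) was not called (limma adjusted p = 0.0624). It was called without control replicate 3 (0.49, limma adjusted p = 0.0217) and under the scaling without muscle, blood and the 50 highest genes (0.54, 0.0221).

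The differences of Hoxa10 and Hoxc10 had opposite signs on the deposited scaling, although that of Hoxa10 did not pass the test. Per kilobase, Hoxa10 stood at 0.187, 0.228, 0.268 and 0.159 times Hoxc10 in the control libraries and at 0.389, 0.341, 0.331 and 0.399 in the libraries labelled knockout, with no overlap. The log2 of the ratio was higher by 0.82 in the group labelled knockout, and by 0.69 to 0.94 with any 1 library left out. This ratio, too, is free of the scaling of the libraries, was chosen after its values were seen and carries no test.

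Hoxd10 (chr2:74691924-74695105, plus strand), the third group 10 gene, rested on 17 to 53 reads per library. It had 46.5, 22.2, 38.3 and 58.1 normalised reads in the control libraries and 17.0, 33.4, 22.8 and 17.6 in those labelled knockout. Control replicate 2 lay inside the range of the libraries labelled knockout. The log2 difference of -0.81 (SE 0.35) was not called (limma adjusted p = 0.116).

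None of the 3 group 9 genes was called by limma, edgeR or DESeq2 on the deposited scaling or the reads, with 1 of them, Hoxd9, at an unadjusted p under 0.05. Hoxa9 (chr6:52223100-52231089, minus strand), also known for its role in blood progenitors, had 286, 274, 379.5 and 322 normalised reads in the control libraries and 417, 316, 422 and 389 in those labelled knockout. Control replicate 3 lay within the range of the libraries labelled knockout, and replicate 2 of the latter within the control range. The log2 difference of Hoxa9 was 0.29 (SE 0.14, limma adjusted p = 0.142), and it was called only under the scaling without muscle, blood and the 50 highest genes (0.44, limma adjusted p = 0.0466).

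Hoxd9 (chr2:74697727-74700208, plus strand), next to Hoxd10 on the cluster, had 288, 197, 262 and 361 normalised reads in the control libraries and 198, 209, 165 and 242 in those labelled knockout. The groups overlapped through control replicate 2 and the log2 difference of -0.42 (SE 0.19) was not called (limma adjusted p = 0.130). Hoxc9 (chr15:102976439-102985099, plus strand) had 160.1, 239, 238 and 268 normalised reads in the control libraries and 261, 212, 198 and 201 in those labelled knockout, all but control replicates 1 and 4 within 1 shared range. Its log2 difference was -0.04 (95% interval -0.42 to 0.35, limma adjusted p = 0.893), and the sign turned under the scaling without muscle, blood and the 50 highest genes (0.11).

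Hoxa11 (chr6:52242106-52245810, minus strand), which patterns the segment below the knee, rested on 12 to 55 reads per library, the 12 being the lowest of any of the 10 genes in any library. It had 30.3, 38.4, 47.7 and 13.1 normalised reads in the control libraries and 35.9, 47.0, 39.1 and 29.0 in those labelled knockout. Control replicate 4 was the lowest library and control replicate 3 the highest, with the others between them. The log2 difference was 0.33 (95% interval -0.50 to 1.17, limma adjusted p = 0.547) and turned to -0.03 without control replicate 4.

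**Figure D4:**
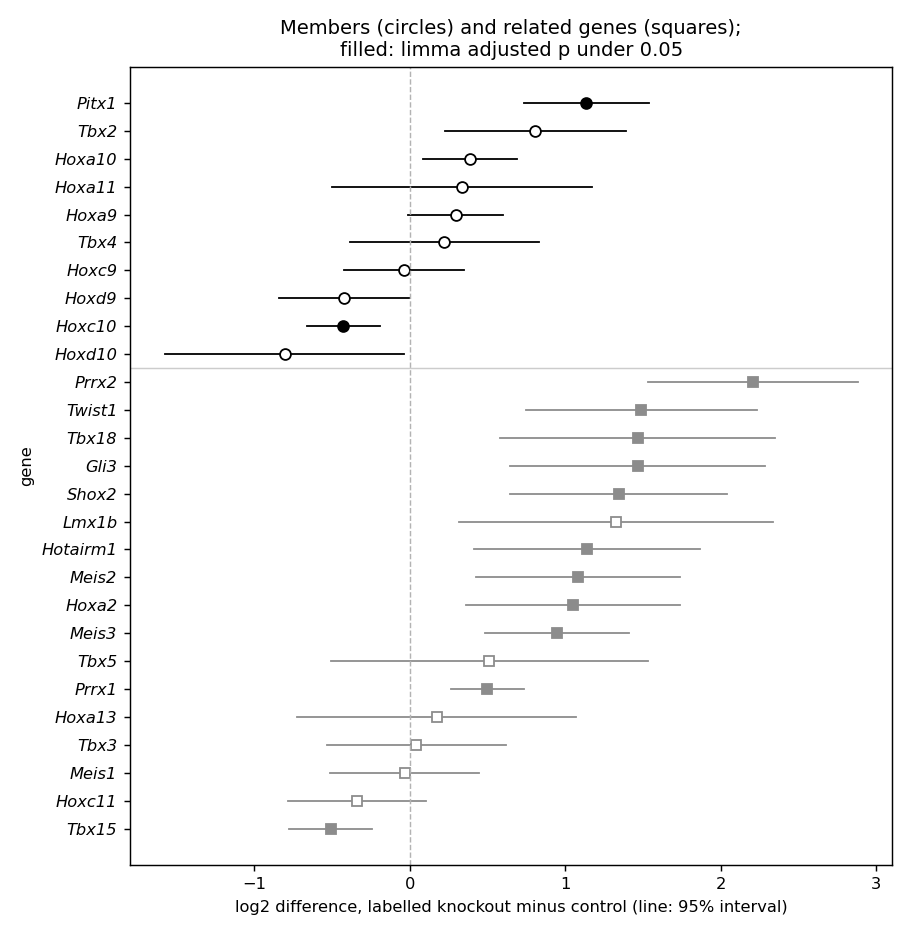
Log2 differences (labelled knockout minus control) with 95% intervals from the limma fit, for the 10 genes (circles, above the line) and related genes (squares), filled where called. Pitx1 at 1.13 and Hoxc10 at -0.43 are the filled circles, and among the squares the limb mesenchyme factors Prrx2, Twist1, Gli3 and Shox2 lie furthest to the right with Tbx18.

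By cluster, the tested HoxA genes had a median log2 difference of 0.15 (10 genes, 1 called higher), the HoxC genes 0.04 (7 genes, 1 called lower) and the HoxB genes -0.00 (6 genes, 0 called by limma, edgeR or DESeq2 and 0 at an unadjusted p under 0.05). All 3 tested HoxD genes, Hoxd8, Hoxd9 and Hoxd10, had negative differences with a median of -0.44 (0 called by limma, edgeR or DESeq2, 3 at an unadjusted p under 0.05). That unadjusted p was met by 5741 of all 14949 tested genes. The called HoxA gene was Hoxa2, a gene of low level here, with means of 12.3 ± 1.67 and 27.2 ± 8.12 (log2 difference 1.05, limma adjusted p = 0.0355). Its call was lost on leaving out control library 1, 2 or 4 or labelled-knockout library 1, 2 or 3 (limma adjusted p 0.0574 to 0.0886 for the control and 0.0646 to 0.0975 for the knockout libraries), with no filter (0.0527) and under quantile normalisation (0.0979). Neighbours on a cluster share regulatory DNA and are not independent of each other.

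The other posterior Hox genes gave no call. Of 3 tested, 0 were called by limma, by edgeR or by DESeq2, and 0 had an unadjusted p under 0.05. Hoxc11 had 152.5, 117, 186 and 158 normalised reads in the control libraries and 138, 141, 121 and 86.3 in those labelled knockout (log2 difference -0.34, limma adjusted p = 0.236). Hoxa13, the gene of the foot end of the limb, had means of 47.5 ± 21.5 and 50.4 ± 16.3 (log2 difference 0.17, 95% interval -0.73 to 1.07). Its sign turned under quantile normalisation, to -0.07. Of 16 tested anterior Hox genes 1 was called higher, Hoxa2, and 0 lower, with a median of 0.01. Of 4 tested non-coding transcripts of the clusters 1 was called higher, Hotairm1, with means of 10.9 ± 3.38 and 24.9 ± 5.13 (log2 difference 1.14, limma adjusted p = 0.0326). That call was lost on leaving out control library 2, 3 or 4 or labelled-knockout library 1, 2 or 4 (limma adjusted p 0.0559 to 0.0896) and under quantile normalisation (0.0814).

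Of 8 other tested T-box genes 1 was called higher and 1 lower. Tbx18 rose from 63.4 ± 39.7 to 160.6 ± 50.8 (log2 difference 1.46, limma adjusted p = 0.0268), a call lost on leaving out control library 1 or 2 or labelled-knockout library 1, 2 or 4 (limma adjusted p 0.0581 to 0.0808). Tbx15, a factor expressed in fast muscle fibres and in limb mesenchyme, fell from 4630 ± 732 to 3230 ± 284 (log2 difference -0.51, limma adjusted p = 0.0167), a call lost without knockout replicate 4 (0.0513) and under quantile normalisation (-0.26, 0.115). Tbx3, the close relative of Tbx2, had means of 172 ± 62.7 and 169.9 ± 31.7, and Tbx5 had a log2 difference of 0.51 (95% interval -0.51 to 1.53). The sign of the difference of Tbx3, 0.04, turned under quantile normalisation, to -0.12.

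TALE homeodomain proteins, the Meis family among them, bind DNA together with Hox proteins. Of 8 tested, 2 were called higher and 0 lower. Differences were positive for 4 and negative for 4, with a median log2 difference of 0.00. Summed values of the 9 analysed genes were 2007 to 2328 in control libraries. In libraries labelled knockout the sums were lower, at 1961 to 2005, without overlap. Meis2 rose from 18.9 ± 6.21 to 39.7 ± 6.06 (log2 difference 1.08, limma adjusted p = 0.0273) and Meis3 from 85.2 ± 18.5 to 165 ± 35.0 (0.94, limma adjusted p = 0.0133). The call of Meis2 was lost on leaving out control library 2 or labelled-knockout library 1, 2 or 4 (limma adjusted p 0.0615 to 0.0718) and under quantile normalisation (0.0689). Meis1 (90.4 ± 21.8 and 88.0 ± 19.3) was not called. Its small negative difference, -0.03, turned positive under the scaling without muscle, blood and the 50 highest genes, at 0.11.

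Transcription factors of limb mesenchyme, which mark the cells that carry the Hox pattern, were a further list. Of 13 tested, 6 were called higher and 0 lower, with a median log2 difference of 0.85. Prrx2 rose from 94.8 ± 48.3 to 411 ± 88.5 (2.21, limma adjusted p = 0.00398), Twist1 from 111 ± 47.9 to 306 ± 93.6 (1.49, 0.0141) and Shox2, which patterns the upper limb segment, from 105 ± 46.5 to 255 ± 62.2 (1.34, 0.0159). Prrx1 rose from 1514 ± 96.1 to 2151 ± 295 (0.50, limma adjusted p = 0.0119). Gli3 rose from 53.6 ± 27.8 to 141 ± 45.1 (1.46, limma adjusted p = 0.0207), a call lost on leaving out control library 2 or labelled-knockout library 1 or 4 (limma adjusted p 0.0548 to 0.0647). Lmx1b, the factor of the dorsal limb and the patella, had means of 16.2 ± 11.4 and 38.3 ± 15.8 (1.33) and was not called (limma adjusted p = 0.0588), except without control replicate 3 (1.72, 0.0152) and under the scaling without muscle, blood and the 50 highest genes (1.47, 0.0458). Isl1, which acts upstream of hindlimb outgrowth, was not analysed here.

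The 10 genes were also read against the tissue lists within each library. The mean log2 value of the 16 fibroblast genes was higher by 1.54 in the group labelled knockout and that of the 18 muscle genes lower by 0.73, and neither overlapped between the groups. Setting a gene against a list subtracts the shift of the list from every gene alike, so the signs below follow mostly from that shift. Relative to the fibroblast list in the same library, 10 of 10 genes had negative differences, as did 97.6% of all tested genes, and for 5 the groups did not overlap, against 53.8% of all tested genes lower in that way. The values ran from -2.34 for Hoxd10 to -0.40 for Pitx1. Relative to the muscle list, a measure added after the data were seen, 9 of 10 had positive differences (96.5% of all tested genes), up to 1.87 for Pitx1, and for 7 the groups did not overlap (62.8% of all tested genes higher in that way). These shares of the 10 genes were near those of all genes. Hoxc10, at -0.43 on the deposited scaling, was at -1.96 relative to the fibroblast list and 0.31 relative to the muscle list, both without overlap. These values carry no test, and the part that tissue composition has in the differences of Pitx1 and Hoxc10 was not tested.

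**Figure D5:**
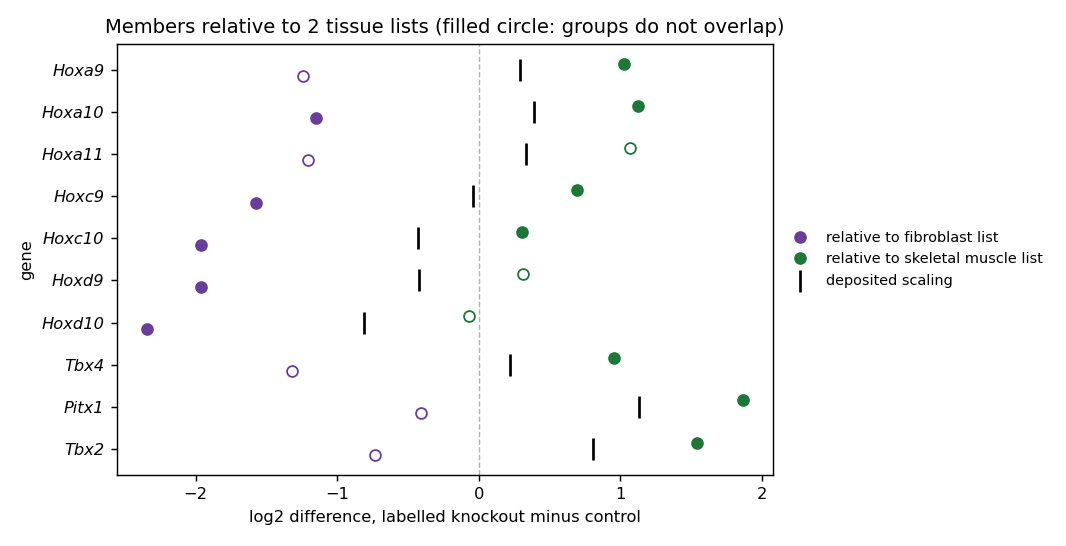
Log2 difference (labelled knockout minus control) of each of the 10 genes on the deposited scaling (black marks), relative to the fibroblast list (purple) and relative to the skeletal muscle list (green), with filled circles where the groups do not overlap. The circles are each gene's black mark moved by the shift of the list, the same for every gene. Pitx1 lies furthest to the right and Hoxd10 furthest to the left on each scale.

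Markers of the other cells a joint can hold were read beside these values. Of 13 tested chondrocyte genes 2 were called higher, of 10 osteoblast genes 4 and of 6 synovial lining genes 1, and their summed values overlapped between the groups. The chondrocyte sums were 4020 to 12603 in control libraries and 11347 to 14302 in libraries labelled knockout, so genes of this list were detected in each library. Much of each sum was Comp, with means of 4358 for control and 7942 for labelled knockout, where the sums had means of 7873 and 12604. Of 10 macrophage genes 9 were called higher, with sums of 2873 to 6757 and 10034 to 14267. Of 9 erythroid genes, 9 had negative differences with a median of -1.91. By limma or edgeR 0 were called and by DESeq2 1, with 8 at an unadjusted p under 0.05 (5741 of all 14949 tested genes). Their sums were 16828 to 99225 in control libraries and 4060 to 42778 in libraries labelled knockout. Of 10 neutrophil genes, 10 had negative differences with a median of -0.64; 0 were called by limma, edgeR or DESeq2, with 1 at an unadjusted p under 0.05, and the sums overlapped (1542 to 6174 and 1172 to 2832). Of 8 listed keratinocyte genes only 3 were analysed. Of these 1 was called lower, Trp63, and 1 had a positive difference. The sums of 288 to 327 and 191 to 258 did not overlap, but much of each sum was Trp63. Its means were 199 for control and 127 for labelled knockout, where the sums had means of 308 and 229. Of 6 tested blood progenitor genes, a cell type that also expresses Hoxa9, Hoxa10 and Meis1, 0 were called by limma, 0 by edgeR and 1 by DESeq2, with 1 at an unadjusted p under 0.05. Their sums of 1225 to 1726 and 1359 to 2287 overlapped, and among them Cd34, which vessels also express, and Hlf were the highest. Of 6 muscle progenitor genes 0 were called by limma and 1 each by edgeR and DESeq2, with 3 at an unadjusted p under 0.05. Their part in the results for the 10 genes was not tested.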

How the data were processed

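RNA from mouse knee joints was sequenced as 8 poly-A libraries, 4 per group. Per the labels, the authors counted reads per gene on mm10 and normalised and filtered them with DESeq2, and the submitters' processing notes name HISAT2 and featureCounts; versions, annotation and filter values are not given in the sources used here. The deposited values are a normalised signal, the count divided by 1 size factor per library. Divided by a column's smallest positive value, 100% of its values came out whole (within 0.05 reads), which gave back 13991000 to 17411617 reads per library. That value, 1.01 for control replicate 2 and 0.997 for knockout replicate 1, was too close to 1 there for the check to tell much. No 2 libraries of a group were alike within sampling noise (chi-square per degree of freedom 25.8 to 66.1).

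Genes that reached 10 in 4 or more libraries were tested on log2(value + 1) by limma 3.58.1 (lmFit, eBayes with trend, 1 term for the group), with Benjamini-Hochberg adjustment over all genes tested and calls at an adjusted p under 0.05. Fold changes are on that scale, which understates those of low genes. As alternatives, edgeR 4.0.16 (quasi-likelihood) and DESeq2 1.42.0 were run on the recovered reads (edgeR called 3324 genes), beside other pseudocounts, filters and scalings, the replicate block and leaving out each library. Names, coordinates and exon lengths came from GENCODE M21 (GRCm38, the build of mm10), to which 99.2% of the names matched.

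The 10 genes and the gene lists were chosen with earlier results of these data known. Named beside the 10 were Tbx5, Tbx3, Hoxa13, Hoxc11, Meis1, Meis2, Shox2, Lmx1b, Prrx1 and Loxl2 whatever their values (Hoxd11, Hoxd13 and Isl1 were not analysed here), up to 3 further called genes of smallest p per related list (1 of highest level where none was called), up to 2 of highest level per cell type list, and members of counts of 5 or fewer; 1 gene that this rule names is not reported here.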

Additional observations from a re-analysis of the deposited data

Results flagged for a closer look

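In 56 groups of 4 libraries examined, 1 library stood far from the other 3 in 3 cases, where chance gives about 1 in 20. Hoxc10 had 641 normalised reads in knockout replicate 4 and 791 to 803 in the other libraries labelled knockout. Loxl2 had 1135 in control replicate 3 and 282 to 349 in the other control libraries. Meis1, a cofactor of Hox proteins, had 117 in knockout replicate 1 and 76.6 to 81.6 in the other libraries labelled knockout.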

How the results depend on the processing

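Under 19 other settings the count of the 10 genes called higher was 1 or 2, and 4 under the scaling without muscle, blood and the 50 highest genes, and 2 with a pseudocount of 2 or 5 and with DESeq2 (Tbx2 added). Called lower was 1, but 0 under that scaling and under the replicate block. Leaving out 1 library gave 1 to 2 called higher and 0 to 1 lower, 1 to 2 higher and 1 to 3 lower by separate groups, and 3 higher by separate groups under that scaling. Over all genes the 3461 calls (1732 higher, 1729 lower) went to 2715 higher and 780 lower under that scaling, which moved the median of all genes to 0.15, and to 2018 (1117 and 901) under the replicate block. Leaving out 1 library gave 1751 to 3841 calls, 831 to 1840 of them higher and 913 to 2001 lower, fewest without knockout replicate 4, then control replicate 2 (1887) and control replicate 4 (2194). In fits that leave out a library fewer samples are used; for the other shifts the cause was not tested.

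The replicate numbers are not stated to pair the libraries, and same-numbered libraries deviated together by correlations of only 0.21, -0.12, -0.23 and -0.06, so the block serves as a check alone. Under it Pitx1 kept its call, and the calls of Hoxc10 (limma adjusted p = 0.0671), Loxl2 (0.0513), Gli3 (0.0503), Tbx18 (0.0548), Hotairm1 (0.061), Meis2 (0.0611) and Hoxa2 (0.0828) were lost.

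Signs turned only for small differences, and the cause was not tested. With 1 library left out, Hoxa11 ranged from -0.0332 (without control replicate 4) to 0.561. Hoxc9 went to 0.11 under the scaling without muscle, blood and top genes, 0.0514 without control replicate 4 and 0.0048 without knockout replicate 3, and its lowest value with 1 library left out was -0.196. Tbx4 went to -0.0372 under quantile normalisation. Tbx3 went to -0.12 there, -0.0078 with edgeR, -0.012 with DESeq2, and -0.168, -0.053 and -0.077 without control replicates 1 and 4 and knockout replicate 3, up to 0.219 without control replicate 2. Hoxa13 went to -0.0713 under quantile normalisation, -0.215 without control replicate 4 and -0.0077 without knockout replicate 3, up to 0.401 without control replicate 2. Meis1 went to 0.11 under the scaling without muscle, blood and top genes, 0.113 without control replicate 4, 0.0221 and 0.0246 without knockout replicates 2 and 4, and -0.176 without knockout replicate 1. Depth limits Hoxa11 and Hoxd10, with 12 to 55 and 17 to 53 reads per library.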
